A study of Mus musculus with 12 samples.

Results

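Receptor tyrosine kinases are membrane proteins that dimerise on binding a ligand, phosphorylate their own cytoplasmic tails and so recruit adaptors that drive the RAS-MAPK and PI3K-AKT pathways. In myoblasts, fibroblast growth factors and hepatocyte growth factor are known for keeping cells dividing and holding back differentiation, and receptors of platelet-derived growth factor are better known from connective tissue and pericytes. Accessible chromatin was examined here at 10 genes of this class, of 21627 protein-coding genes: Fgfr1, Fgfr2, Fgfr3, Fgfr4, Met, Egfr, Pdgfra, Pdgfrb, Ddr2 and Axl. They were listed by name as growth factor receptors, with earlier results of these data known, and no peak value entered the choice rule. A peak was counted at a gene when its centre lay in the annotated gene or within 10 kb of it, which gave 44 of the 34118 peaks of wild-type cells and 41 of the 27187 peaks of Runx1 knockout cells.

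The cells were C2C12, an established mouse myoblast line. The WT group was labelled WT (control) and the KO group Runx1KO, and both were grown to near confluency in growth medium with 20% fetal bovine serum and taken at day 0. Each group had 3 samples, and 6 more samples of both genotypes from differentiation medium at day 2 were not analysed here. The labels do not say how the knockout was made, nor whether the KO cells are 1 clone. In ATAC-seq, the Tn5 transposase inserts adapters into open DNA, so accessible sites collect reads and are called as peaks. All peak names point to the replicate 1 library, so each value below comes from 1 library per genotype, has no replicate error, and allows no p-value between genotypes. Sequencing depth is unknown. Fold enrichment (the peak over its local background) and −log10 q (the significance of the peak call) are the authors' own values. Both depend on depth, so the percentile of a peak within its own list is given to place it. Because the lists differ in length, a difference between percentiles cannot be read as a change between genotypes.

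Runx1, the targeted gene, had 19 WT and 12 KO peaks, which give no readout of the edited allele. Of 7 genes that mark myoblasts, 6 had a peak in each list (among them Myod1 and Des), and Myf5 had none in either. Of 10 markers of other cell types, 5 had a peak in each list: Cd68, Pecam1, Cdh5, Krt8 and Rbfox3. Ptprc, Alb, Afp, Epcam and Sox10 had none. A peak shows open chromatin at a gene, not its transcription.

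At least 1 peak was found at 9 of the 10 receptor genes, against 65.8% of all protein-coding genes. Fgfr3 was the exception, with no peak in either list. Ddr2 had the most, with 9 WT and 8 KO peaks, followed by Met with 8 and 8, Egfr with 7 and 7, Axl with 6 and 6, Pdgfrb with 5 and 2, and Fgfr2 with 3 and 5. Fgfr1 and Fgfr4 had 2 and 2, and Pdgfra had 2 WT peaks under 1 KO peak. The median protein-coding gene had 1 peak in each list. Per 100 kb of gene and flanks, Axl was the most densely covered, with 11.4 WT peaks (above 96.5% of protein-coding genes), then Pdgfrb with 8.34 (above 91.2%) and Met with 6.12 (above 83.3%). The Axl densities include peaks centred in the neighbouring gene Hnrnpul1, among them the strongest WT peak at Axl. No Pdgfrb peak was centred in another gene, so the WT lead of Axl over Pdgfrb may rest on these peaks. The order without them was not computed. Fgfr2, at 2.41 WT peaks per 100 kb, lay near the WT median of all genes, 2.21. The KO densities were ordered differently: Axl again led with 11.4 (above 98.1%) and Met followed with 6.12, whereas Pdgfrb had 3.34 (above 68.9%) and Fgfr2 4.02 (above 76.0%), beside a KO median of 1.71.

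**Figure D1:**
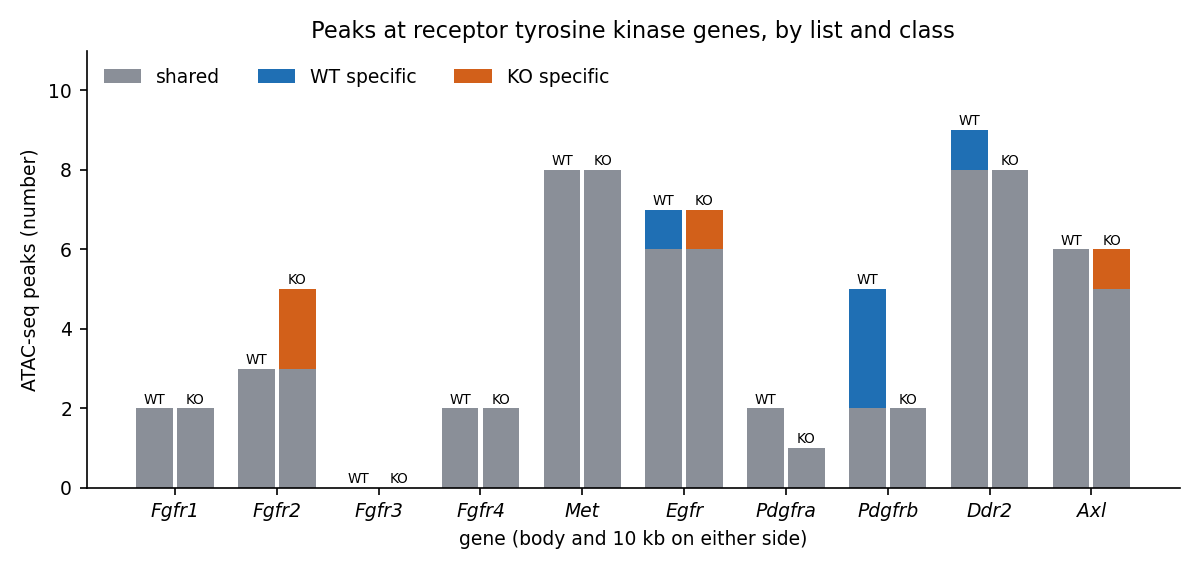
Number of ATAC-seq peaks (vertical axis) at each of the 10 genes (horizontal axis) in the WT list (left bar) and the KO list (right bar), split into shared peaks (grey), WT specific peaks (blue) and KO specific peaks (orange). Pdgfrb has 3 WT specific peaks and Fgfr2 has 2 KO specific peaks, while Met has 8 shared peaks in each list and no specific one.

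A peak was specific when the deposited specific list of its genotype held it, which for every peak was the same as having no overlap of 1 bp with the other list. At the 10 genes, 5 of 44 WT peaks were WT specific (11.4%, exact 95% binomial interval 3.79 to 24.6), beside 27.3% of all WT peaks and 25.6% of WT peaks at protein-coding genes. Of 41 KO peaks, 4 were KO specific (9.76%, interval 2.72 to 23.1), beside 9.59% of all KO peaks and 7.94% at protein-coding genes. The KO share depended on the overlap rule: it was 24.4%, beside 14.9% of all KO peaks, when a partner had to cover 50% of the peak, and 19.5%, beside 13.3%, when the centre had to lie in a WT peak. Under the 50% rule a KO peak much wider than the WT peak inside it lost its partner. At Egfr, for example, a KO peak of 441 bp covered a WT peak of 195 bp, with summits 0 bp apart. The binomial intervals cover counting error only. They take peaks as units, although peaks at 1 gene share their source. Pdgfrb alone gave 3 of the 5 WT specific peaks, and without it 2 of 39 WT peaks (5.13%) were specific, a calculation chosen after its values were seen. WT specific peaks lay at 3 of the 9 genes with peaks (Egfr, Pdgfrb and Ddr2), beside at least 1 at 39.1% of protein-coding genes with a WT peak. KO specific peaks also lay at 3 of the 9 (Fgfr2, Egfr and Axl), beside at least 1 at 12.3% of protein-coding genes with a KO peak. These shares per gene are not matched for the number of peaks. Most of the 9 genes held more peaks than the median protein-coding gene. The shares per peak avoid this limit but are not matched for peak strength. Of the peaks at the 10 genes, 65.9% (WT) and 56.1% (KO) lay under the median −log10 q of their list. Fgfr1, Fgfr4, Met and Pdgfra had peaks but no specific one, as did 55.3% of protein-coding genes with a peak.

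Specific peaks at these genes were weak peaks of their lists, as were most specific peaks genome-wide. Of all 9318 WT specific peaks, 8266 lay under the WT median of −log10 q. Of all 2607 KO specific peaks, 2410 lay under the KO median. Weakness therefore does not set the specific peaks at these genes apart. All 5 WT specific ones lay under the WT median of −log10 q (16.1), among 29 WT peaks there (17.2%), where 48.5% of all WT peaks were specific. The 15 WT peaks at or above it were all shared, beside 6.17% specific among all such WT peaks. All 4 KO specific peaks lay under the KO median (17.6), among 23 KO peaks there (17.4%, beside 17.7% of all such KO peaks), and the 18 KO peaks at or above it were all shared, beside 1.45% specific among all such KO peaks. The median −log10 q of the shared peaks at the 10 genes was 14.6 in WT and 17.5 in KO, under the medians of all shared peaks, 21.1 and 19.1. All 9 specific peaks were centred inside their gene (100%, exact interval 66.4 to 100). So were 33 of 44 WT peaks (75.0%) and 30 of 41 KO peaks (73.2%), and the other 11 WT and 11 KO peaks lay in the flanks. Both shares lay inside that interval, so these counts do not set specific peaks apart by position. The like share for specific peaks at all protein-coding genes was not computed. Call numbers in the peak names skip values where calls had been removed before deposit. Beside 8 of the 9 specific peaks at least 1 number of the other list was missing, as was the case for 86.9% of all WT specific and 87.3% of all KO specific peaks. A specific peak is therefore a site with no retained call in the other list, which is not the same as no signal there.

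**Figure D2:**
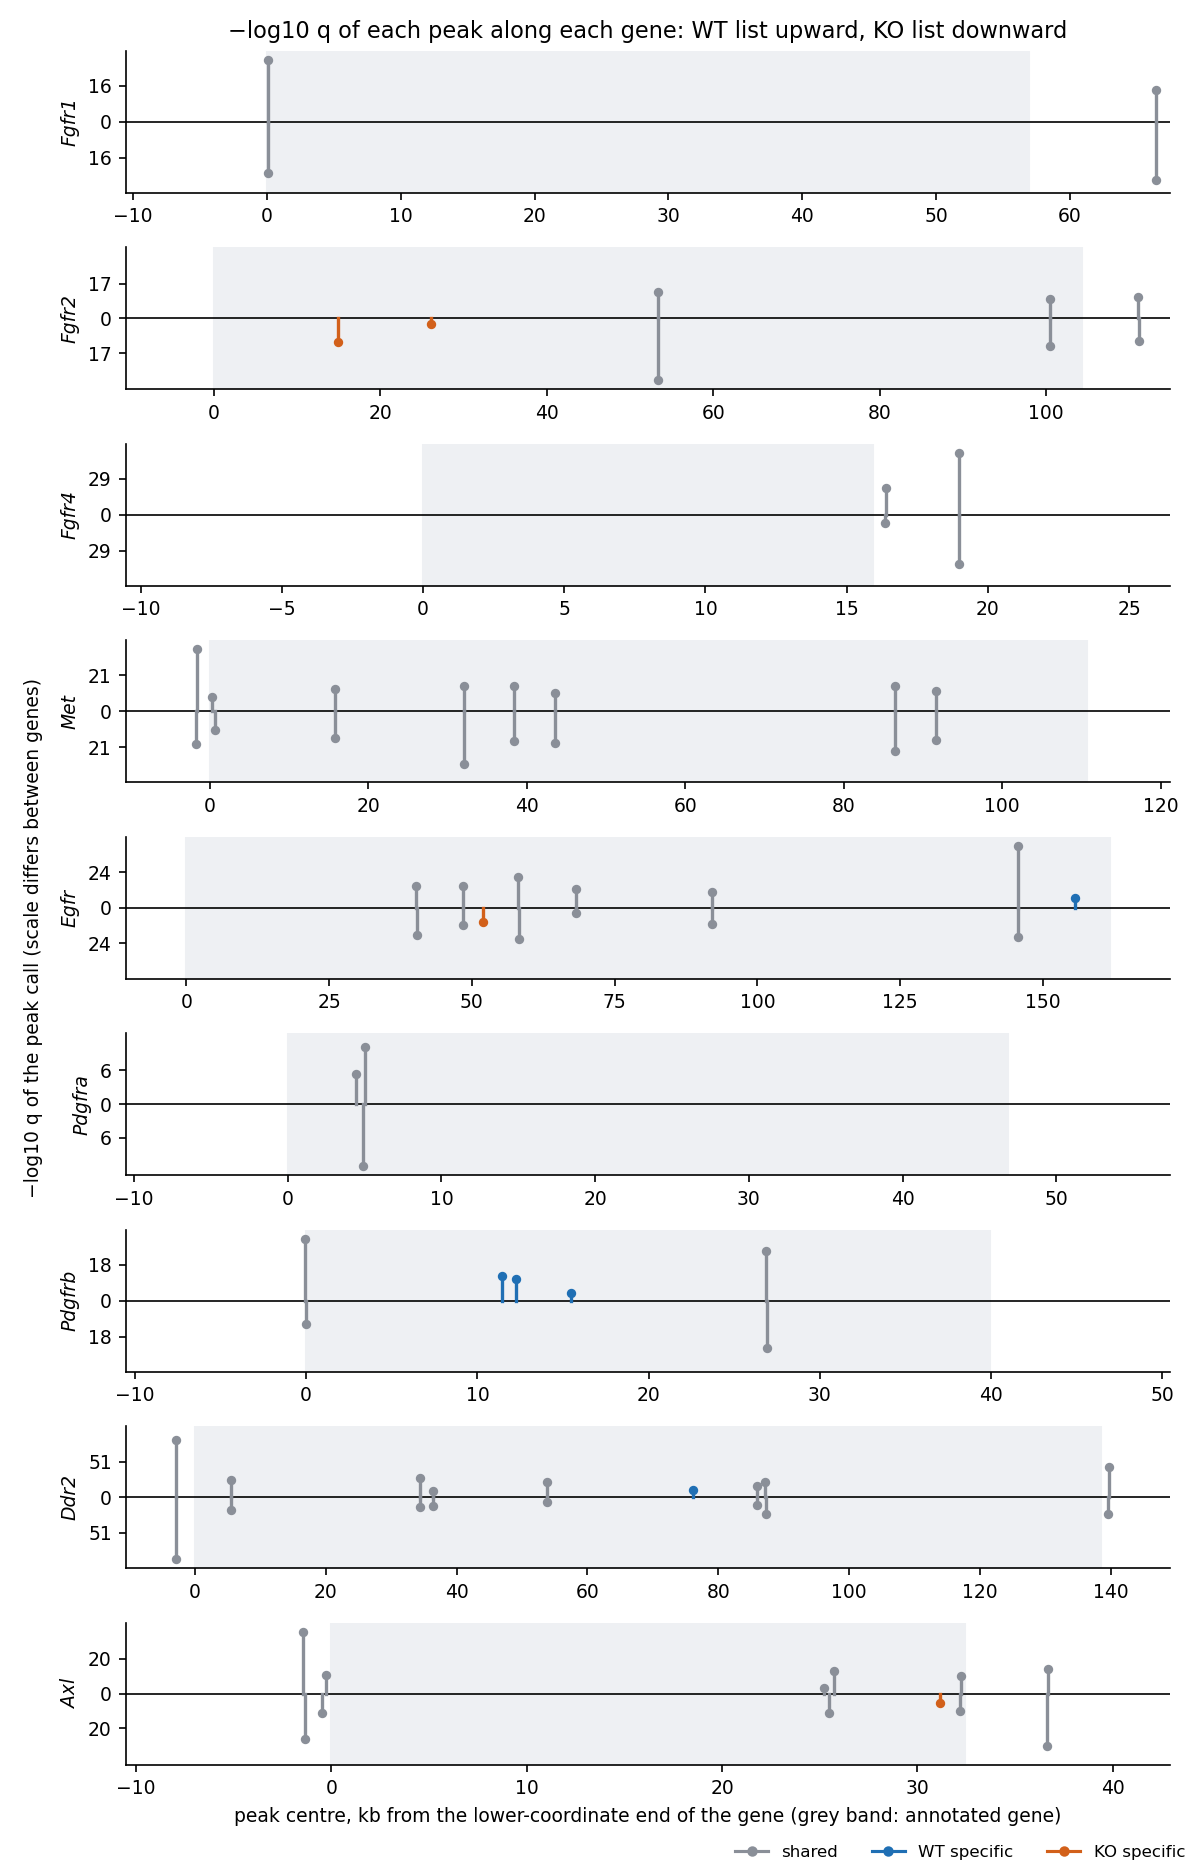
Position of each peak centre along 9 genes in kb from the lower-coordinate end of the gene (horizontal axis, grey band the annotated gene) and −log10 q of the call (vertical axis, WT list upward, KO list downward, scale set per gene). The 3 WT specific peaks of Pdgfrb stand side by side between 2 shared peaks, and the 2 KO specific peaks of Fgfr2 lie in the part of the gene far from its annotated start.

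The start sites came next. RefSeq windows (GRCm38.p6, 250 bases before to 50 after an annotated start) were matched for 8 of the 10 genes, all but Fgfr1 and Pdgfrb, with 9 windows in all since Fgfr3 has 2. A WT peak overlapped 2 of the 9 windows (22.2%, exact interval 2.81 to 60.0), those of Met and Axl, and a KO peak overlapped the same 2. Over 21044 windows of protein-coding genes, 40.3% overlapped a WT peak and 36.9% a KO peak. The interval holds both of these shares, so the counts do not set the starts of these genes apart. Fgfr1 and Pdgfrb, left out for lack of a window, each had a shared peak across the lower end of the gene. Whether that end holds the start was not tested. The 250 bases before the start are shown for Met and Axl, whose windows held peaks, and for Egfr and Ddr2, genes rich in peaks whose windows held none. Each is written 5′ to 3′ on the strand of the gene, and capitals mark bases inside a WT peak.
Met, chr6:17463707-17463956, plus strand: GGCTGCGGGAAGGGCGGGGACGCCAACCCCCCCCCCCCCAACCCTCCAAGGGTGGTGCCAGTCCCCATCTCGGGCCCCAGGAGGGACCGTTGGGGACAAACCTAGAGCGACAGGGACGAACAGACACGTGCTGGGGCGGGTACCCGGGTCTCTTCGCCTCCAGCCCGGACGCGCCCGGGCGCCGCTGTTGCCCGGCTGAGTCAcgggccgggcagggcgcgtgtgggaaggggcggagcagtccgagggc
Axl, chr7:25788734-25788983, minus strand: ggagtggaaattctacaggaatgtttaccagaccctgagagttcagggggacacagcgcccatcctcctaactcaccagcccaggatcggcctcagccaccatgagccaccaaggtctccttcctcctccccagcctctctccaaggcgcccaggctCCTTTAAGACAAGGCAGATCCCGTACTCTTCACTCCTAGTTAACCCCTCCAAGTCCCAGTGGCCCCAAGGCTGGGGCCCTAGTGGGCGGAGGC
Egfr, chr11:16751953-16752202, plus strand: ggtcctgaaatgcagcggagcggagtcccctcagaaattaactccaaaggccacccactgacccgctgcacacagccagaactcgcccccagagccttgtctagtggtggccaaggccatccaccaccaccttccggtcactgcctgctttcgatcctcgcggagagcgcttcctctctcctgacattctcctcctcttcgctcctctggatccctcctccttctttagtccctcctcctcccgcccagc
Ddr2, chr1:170088945-170089194, minus strand: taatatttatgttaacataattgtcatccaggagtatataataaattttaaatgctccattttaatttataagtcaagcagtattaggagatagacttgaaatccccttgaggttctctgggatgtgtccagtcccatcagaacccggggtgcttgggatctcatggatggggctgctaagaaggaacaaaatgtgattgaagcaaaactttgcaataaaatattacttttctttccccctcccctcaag

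In the Met sequence 203 of the 250 bases lay in the WT peak and 152 in the KO peak, and in the Axl sequence 93 and 92. The Met bases were 74.0% G or C with 24 CpG dinucleotides, those of Axl 60.0% with 5, those of Egfr 60.8% with 11 and those of Ddr2 37.6% with 1. The median was 18 CpG in windows with a WT peak and 4 in windows without one, so Axl had few for a window with a peak. Fgfr3, with no peak, had 19 and 24 in its 2 windows. Each sequence was searched on both strands for 4 motifs, TGTGGT (RUNX), CGGAAG (ETS), TGANTCA (AP-1) and CAGCTG (an E-box), none of which overlapped another. No window of the 9 held TGTGGT, beside 12.2% of all windows. AP-1 letters were found once, as TGAGTCA in Met at chr6:17463903-17463909, positions −54 to −48 relative to the start and inside both the WT and the KO peak (6.17% of all windows hold a match). An ETS match lay at positions −120 to −115 of Egfr (17.3% of all windows), and an E-box at −97 to −92 of the Fgfr3 window with 19 CpG (12.2%). These are letters in a window, not sites of binding.

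Among the receptors of fibroblast growth factors, Fgfr2 was the 1 gene of the 10 with more KO than WT peaks. Fgfr1 (chr8:25518759-25575718), a main receptor of FGF2 in myoblasts, had a shared peak across the lower end of the gene, WT at chr8:25518666-25519004 with a fold of 12.03 and a −log10 q of 27.6 (percentile 73.9 of its list) and KO at chr8:25518656-25519074 with 9.94 and 23.1 (percentile 65.1). Their summits were 1 bp apart. The other shared peak lay 9.50 kb beyond the gene, inside the neighbouring gene Letm2, with a −log10 q of 14.4 in WT and 26.2 in KO. The peak at the gene end was thus the stronger of the pair in WT and the weaker in KO.

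Fgfr2 (chr7:130162451-130266808, minus strand) encodes a receptor best known from epithelia and bone. Its 3 WT peaks, all shared, were modest, with −log10 q from 9.34 to 12.7. The strongest in both lists lay 51.0 kb downstream of the annotated start, at chr7:130215490-130216042 in WT (fold 8.33, −log10 q 12.7, percentile 38.6) and at chr7:130215582-130216027 in KO (fold 12.6, −log10 q 30.3, percentile 78.1). A second shared peak lay 3.88 kb inside the gene from its start, and the third 6.73 kb outside, within the non-coding gene Gm33555. The KO specific peaks lay toward the far end of the gene. One, at chr7:130177148-130177607, had a fold of 7.95 and a −log10 q of 11.6 (percentile 28.4) and was 33337 bp from the nearest WT peak. The other, at chr7:130188244-130188820, had a fold of 3.995 and a −log10 q of 2.63, at percentile 0.414 of the KO list and so near its floor. At least 2 KO specific peaks were found at 1.51% of protein-coding genes with a KO peak. That share includes genes with too few KO peaks to hold 2, and none was computed among genes with as many peaks as Fgfr2.

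Fgfr4 (chr13:55152818-55168759, plus strand), a receptor known from regenerating muscle, had no peak in the gene. Both of its shared peaks lay just past the end of the gene, 0.445 and 3.05 kb beyond it. The farther one, at chr13:55171497-55172112, was strong in both lists, with a fold of 13.4 and a −log10 q of 49.6 in WT (percentile 91.9) and 11.9 and 39.2 in KO (percentile 87.6). The nearer one, at chr13:55169028-55169380, had a fold of 8.24 and a −log10 q of 21.8 in WT (percentile 63.9) and 4.60 and 6.91 in KO (percentile 9.99). The nearer peak thus lay above the median of the WT list and near the bottom of the KO list. Fgfr3, whose product restrains bone growth, had no peak in the gene or its flanks.

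Met (chr6:17463349-17573980, plus strand), which encodes the receptor of hepatocyte growth factor, the factor known for activating muscle stem cells, had 8 WT peaks, each overlapping 1 of 8 KO peaks. The peaks were ordered differently in the 2 lists. In the WT list the strongest was the peak 1.65 kb upstream of the gene, at chr6:17461580-17461822, with a fold of 13.9 and a −log10 q of 36.2, while the other 7 lay between 8.27 and 15.05. In the KO list this peak, at chr6:17461581-17461795, had a fold of 8.92 and a −log10 q of 19.0 and ranked 3rd of 8. The strongest KO peak lay 32.1 kb into the gene, at chr6:17495145-17495723 with a fold of 14.1 and a −log10 q of 31.0, and its WT counterpart, at chr6:17495222-17495628, ranked 4th with 9.82 and 14.6. Second in both lists was the peak 86.5 kb into the gene, with a −log10 q of 15.05 in WT and 23.6 in KO. The remaining shared peaks inside the gene, at 15.8, 38.3, 43.6 and 91.6 kb, had a −log10 q of 12.9, 14.7, 10.6 and 11.8 in WT and of 15.4, 17.5, 18.5 and 16.7 in KO. Weakest in both lists was the peak at the annotated start, whose promoter sequence is given above. There the 2 calls overlapped by only 105 bp: the WT interval, chr6:17463480-17463909, began and ended before the KO interval, chr6:17463805-17464209, and their summits were 347 bp apart. At the 35 sites of the 10 genes with 1 WT and 1 KO peak the median distance between summits was 26 bp, and 5 of the 35 overlapped by under 50% of either peak (14.3%, beside 8.33% of 24065 such pairs genome-wide).

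Egfr (chr11:16752203-16913907, plus strand) encodes the receptor of epidermal growth factor. None of its peaks was near the start: the nearest lay 40.3 kb into the gene. The strongest WT peak, at chr11:16897663-16898065, had a fold of 15.5 and a −log10 q of 41.9 (percentile 87.9), and its KO partner, at chr11:16897649-16898054, had 10.3 and 19.9 (percentile 56.7) and ranked second of 7. First in the KO list was the peak 58.2 kb into the gene, at chr11:16810151-16810591, with a −log10 q of 20.9, beside 20.8 for the WT peak at chr11:16810205-16810399. That site and the shared peak 68.2 kb into the gene lay within the non-coding gene Egfros, and the shared peak nearest the start lay within Gm39584. The peak at 68.2 kb had a −log10 q of 12.9 in WT and 3.38 in KO, the latter at percentile 1.23 of its list. The other shared peaks, 48.5 and 92.1 kb into the gene, had a −log10 q of 14.7 and 10.7 in WT and 11.9 and 10.9 in KO. One WT specific peak lay near the far end of the gene, 155.7 kb in, at chr11:16907667-16908117 (fold 5.88, −log10 q 6.58), and 1 KO specific peak lay 52.0 kb in, at chr11:16804131-16804326 (fold 6.34, −log10 q 9.39). The former was the weakest of the 7 WT peaks, and the latter was 3313 bp from the nearest WT peak.

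**Figure D3:**
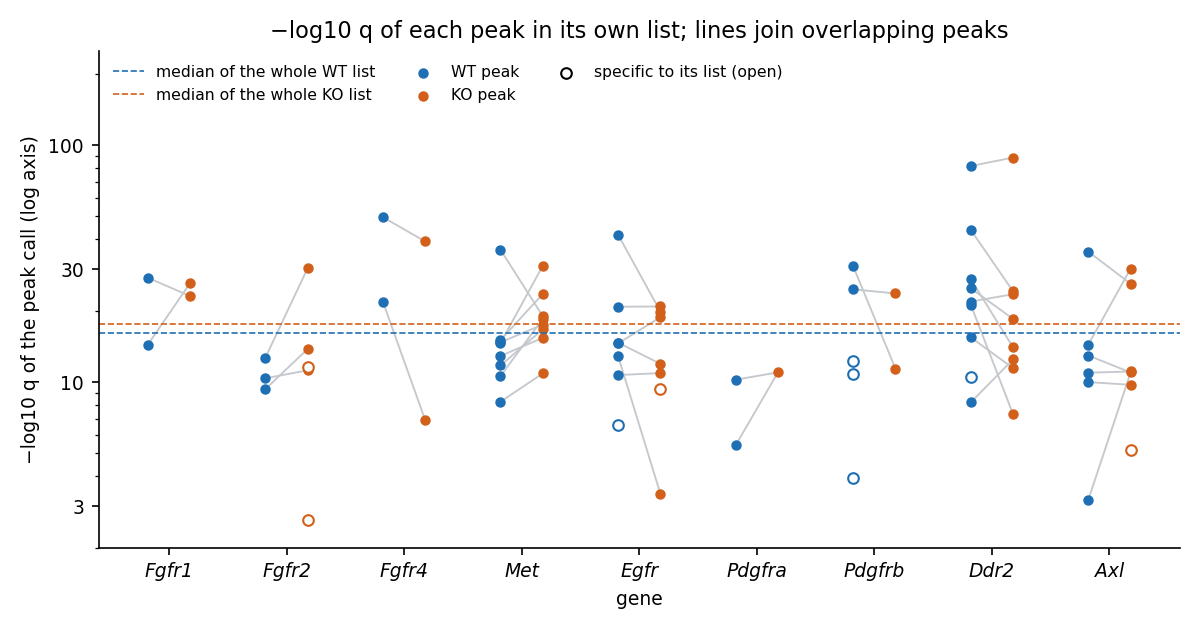
−log10 q (vertical, log axis) of every WT (blue) and KO (orange) peak at the 9 genes with peaks, with lines between overlapping peaks, open circles for specific peaks and dashed lines at the median of each whole list (16.1 WT, 17.6 KO). All 9 open circles lie under the median of their list, and the Ddr2 pair at 81.6 and 88.6 stands above every other peak.

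Of the genes for receptors of platelet-derived growth factor, Pdgfrb had the most one-sided set of peaks. Pdgfrb (chr18:61045127-61085067) encodes the receptor known from pericytes and fibroblasts. The shared peak across the lower end of the gene, WT at chr18:61044811-61045349, had a fold of 11.1 and a −log10 q of 30.8 (percentile 78.2), and KO at chr18:61044851-61045333 had 6.14 and 11.4 (percentile 27.6). The other shared peak, 26.9 kb into the gene, had a −log10 q of 24.6 in WT (chr18:61071512-61072505) and 23.7 in KO (chr18:61071685-61072457), at percentiles 69.0 and 66.5. Between these 2 sites the WT list held 3 more peaks and the KO list none.

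The first WT specific peak of Pdgfrb, at chr18:61056426-61056674, had a fold of 5.49 and a −log10 q of 12.3 (percentile 37.2), the highest −log10 q of the 9 specific peaks described here. The next, at chr18:61057253-61057518, had 5.17 and 10.8 (percentile 31.4). The third, at chr18:61060507-61060647, was 141 bp wide and weak, with 3.49 and 3.93 (percentile 3.34). The nearest KO peak was at least 11038 bp away from each, and 2 KO call numbers were missing in the stretch. The middle of the 3 was the 1 specific peak of the 9 with an entry in an unlabelled column of the specific lists, which is filled for 8.81% of all specific peaks and whose meaning is not stated. At least 3 WT specific peaks were found at 4.16% of protein-coding genes with a WT peak. That share includes genes with too few WT peaks to hold 3, and none was computed among genes with as many peaks as Pdgfrb. In bulk libraries, a site open in fewer cells and a site less open in each cell cannot be told apart.

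Pdgfra (chr5:75151322-75198206, plus strand), the receptor gene that marks fibro-adipogenic progenitors in muscle, had only weak peaks, 3.54 and 4.07 kb downstream of its annotated start. The WT list held 2, at chr5:75155618-75155956 (fold 5.10, −log10 q 5.41) and chr5:75156227-75156408 (fold 7.06, −log10 q 10.2). The KO list held 1 interval over both, chr5:75155751-75156638, 888 bp wide, with a fold of 7.06 and a −log10 q of 10.997. Both WT peaks thus had the same KO partner, and no Pdgfra peak was specific.

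Ddr2 (chr1:169972307-170110836, minus strand) encodes a receptor activated by fibrillar collagen. Its strongest peak in both lists was also the strongest at any of the 10 genes, WT at chr1:169968982-169969674 with a fold of 22.5 and a −log10 q of 81.6 (percentile 98.5) and KO at chr1:169968961-169969674 with 21.0 and 88.6 (percentile 99.5). It lay 2.98 kb beyond the end of Ddr2, across the facing ends of the neighbouring gene Hsd17b7 and the non-coding gene 3110045C21Rik, and the lists do not tie it to any of the 3. Second in both lists was a peak 1.27 kb beyond the upper end of the gene, on its upstream side, with a −log10 q of 43.9 in WT (chr1:170111753-170112465) and 24.2 in KO (chr1:170111755-170112159). The annotated start used for the sequence above lies inside the gene, 22559 bp from the nearest WT peak.

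Inside Ddr2, 7 WT peaks were found, 6 of them shared. The shared ones ranged in −log10 q from 8.21 to 27.2 in the WT list and from 7.33 to 23.5 in the KO list. The peak at chr1:170025946-170026416 had a −log10 q of 21.2 in WT (percentile 62.8) and 7.33 in KO (chr1:170025969-170026165, percentile 11.5), the weakest of the 8 KO peaks. The peak at chr1:170059223-170059746 had 21.9 and 23.5, at percentiles 64.0 and 66.1. The WT specific peak lay at chr1:170048308-170048688, with a fold of 7.75 and a −log10 q of 10.52 (percentile 30.4), 9420 bp from the nearest KO peak. It was the 1 specific peak of the 9 with no missing call number of the other list beside it.

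Axl (chr7:25756500-25788924, minus strand) encodes a receptor of GAS6, of the TYRO3-AXL-MERTK family known for roles in survival and the clearance of dying cells. The shared peak at its annotated start, printed in capitals in the Axl sequence, was nearly the same in the 2 lists: WT at chr7:25788615-25788826 had a fold of 5.61 and a −log10 q of 10.0, KO at chr7:25788578-25788825 had 5.03 and 9.75, and the summits were 16 bp apart. The KO specific peak lay 845 bp from the nearest WT peak and 1.06 kb from the annotated start, inside the gene, at chr7:25787577-25787770, with a fold of 4.02 and a −log10 q of 5.19 (percentile 4.81). No other specific peak was so close to a start among the genes with a start window.

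Upstream of Axl, 4.26 kb beyond the gene, the shared peak at chr7:25793042-25793318 had a −log10 q of 14.4 in the WT list (percentile 44.5) and, at chr7:25792997-25793299, 30.1 in the KO list (percentile 77.9), where it ranked first of 6. In the WT list the first rank was held by chr7:25754513-25755578 (fold 11.3, −log10 q 35.5), 1.46 kb past the other end of the gene and inside the neighbouring gene Hnrnpul1. This peak had 8.98 and 26.01 in the KO list. The smaller peak beside it, with a −log10 q of 10.96 in WT and 11.1 in KO, was also centred in Hnrnpul1. A pair of WT peaks within the gene, with −log10 q of 3.19 and 13.0, lay under 1 KO peak of 712 bp with 10.99, as at Pdgfra.

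The wider pathway was described by lists of its ligands, other receptors, co-receptors, adaptors and inhibitors. Other receptor tyrosine kinases (25 genes, 17 with a peak) had 12 WT specific of 43 WT peaks (27.9%) and 6 KO specific of 37 KO peaks (16.2%). Ligands (22 genes, 17 with a peak) had 14 of 51 (27.5%) and 4 of 42 (9.52%). Adaptors and effectors such as Grb2 and the RAS genes (23 genes, all with a peak) had 14 of 52 (26.9%) and 5 of 43 (11.6%). All 3 WT shares lay within 1 percentage point of the 27.3% of all WT peaks. Of all KO peaks 9.59% were KO specific, which lay inside the exact intervals of all 3 KO shares. The interval was 6.19 to 32.0% for the other receptor kinases, 2.66 to 22.6% for ligands and 3.89 to 25.1% for adaptors and effectors.

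Feedback inhibitors (15 genes, 14 with a peak) had 15 of 44 WT peaks specific (34.1%, exact interval 20.5 to 49.9) and 2 of 31 KO peaks (6.45%). FGF co-receptors and heparan sulfate proteoglycans (8 genes, all with a peak) had 8 of 18 WT peaks specific (44.4%, interval 21.5 to 69.2) and none of 10 KO peaks, which allows up to 30.8%. The WT intervals of both lists hold the 27.3% of all WT peaks. The 9.59% of all KO peaks lay inside their KO intervals, which for feedback inhibitors was 0.791 to 21.4%. Over all the pathway lists, 4 genes had at least 3 specific peaks of 1 genotype. Over all protein-coding genes with a WT peak, 4.16% had at least 3 WT specific peaks. The like share for KO specific peaks was not computed. Hbegf, which encodes a ligand of EGFR, had 4 WT specific among 5 WT peaks, beside 1 KO peak. Lrig1 and Spred2, both inhibitors of receptor signalling, had 4 of 9 and 3 of 7 WT peaks specific. Alk, another receptor kinase gene, had 3 KO specific of 8 KO peaks and 2 WT specific of 7 WT peaks. No test was made between lists.

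**Figure D4:**
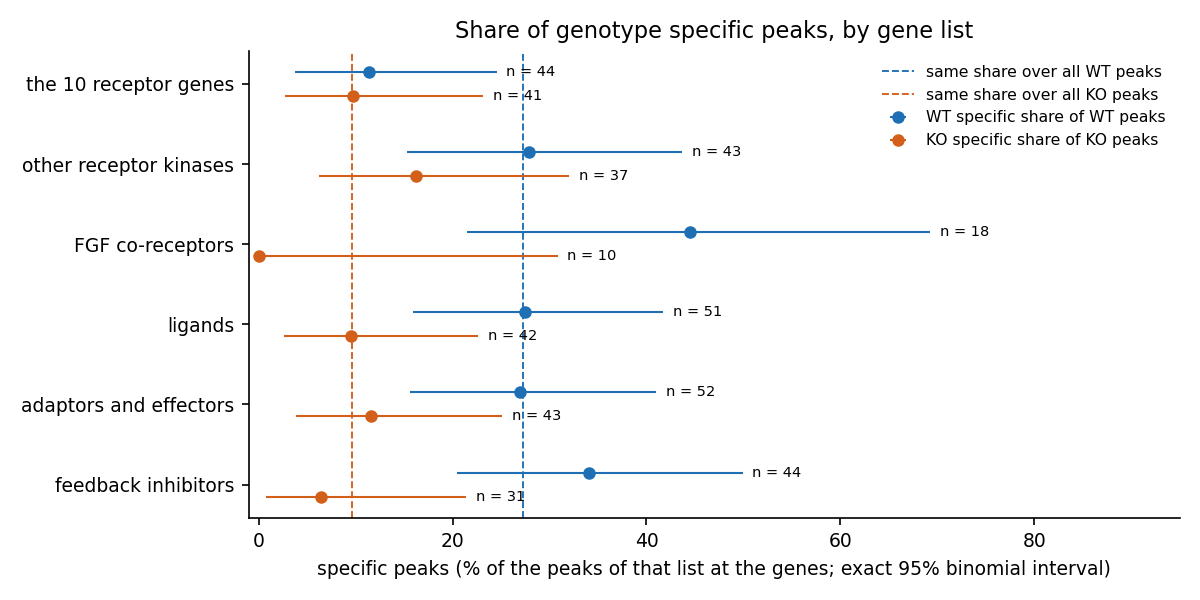
Share of specific peaks (horizontal axis, percent, points with exact 95% binomial intervals, n the number of peaks) among WT peaks (blue) and KO peaks (orange) at the 10 receptor genes and at 5 pathway lists, with dashed lines at the share over all WT (27.3%) and all KO peaks (9.59%). The WT point of the 10 receptor genes (11.4%) is the lowest of the 6 WT points, and its KO point is at 9.76%.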

How the data were processed

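ATAC-seq of C2C12 cells in growth medium was read from 5 peak lists deposited by the authors, WT, KO, shared and 2 specific ones. Per the submitters' processing notes the genome build is mm10. The aligner, peak caller, duplicate handling, treatment of the Tn5 offset and rule for removing calls are not given in the sources used here, and each can change the number and edges of peaks. The authors deposited for each peak a fold enrichment (a ratio over local background), a −log10 q and a summit offset, in narrowPeak layout without a header. An unlabelled column of the specific lists entered no comparison. Peak names carry the replicate 1 library only, and depth is unknown.

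Peaks were assigned to RefSeq genes of GRCm38.p6, the assembly that mm10 names, by their centre (gene and 10 kb on either side), and coordinates are counted from 1. The gene table gives neither exons nor introns. Classes came from the deposited lists. Shares have exact 95% Clopper-Pearson intervals. Gene starts came from RefSeq promoter windows. Intervals were computed with scipy 1.17.1 and tables with pandas 2.3.3 and numpy 2.4.6 under Python 3.11.15, and overlaps were tested on simulated data and checked against bedtools 2.31.1. The genes and pathway lists were chosen with earlier results of these data known. All 10 genes were named, with every specific peak, the strongest peak of each list and peaks at a start. Of the pathway lists, genes with at least 3 specific peaks of 1 list were named. Alternatives in overlap, threshold and assignment were computed.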

Additional observations from a re-analysis of the deposited data

How the results depend on the processing

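No paired analysis was possible because the lists hold values of 1 library per genotype, and leaving out a replicate was not possible for the same reason. The total of 9 specific peaks at the 10 genes was 17 when a partner had to cover 50% of the peak, 15 when the centre had to lie in the other list's peak and 16 with 50 kb around each gene. The KO specific share was 24.4% under the 50% overlap, where it is 14.9% over all KO peaks, and 19.5% under the centre rule (13.3% over all KO peaks). The WT specific share ranged from 11.4 to 18.9% over 8 settings of overlap, threshold and gene assignment, the highest with both lists at a −log10 q of at least 10 (24.1% over all WT peaks there), and was 5.13% without Pdgfrb and 13.5% without peaks centred in another gene, both chosen after seeing the data. Stricter overlap removes partners by construction, and 50 kb adds peaks. Of the specific counts per gene and list, 6 were above 0, and over the 8 settings 36 of their 48 values stayed within 1.5 times the value reported and 12 moved. The other 14 counts were 0, and 15 of their 112 values rose above 0. Pdgfrb had 3 WT specific peaks under 6 of those 8 settings, 2 at a −log10 q of at least 10 and 4 with 50 kb. Fgfr2 had 2 KO specific peaks under all 8, but at a −log10 q of at least 10 they were not the same 2, since the weaker was removed and a shared KO peak lost its WT partner. With 50 kb and with the nearest gene end, Fgfr2 also had 1 and 2 WT specific peaks. Depth is unknown, and its part in the specific calls was not tested.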
